A study of Mus musculus with 10 samples.

Results

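Cell-adhesion molecules of the immunoglobulin superfamily hold neighbouring cells together and pass signals between them. Dscam and Ncam2 belong to families that guide neurites, space out neurons and shape synapses, whereas Jam2, Cxadr and Igsf5 belong to the family of junctional adhesion molecules (JAMs) and the coxsackievirus and adenovirus receptor, which sit at tight junctions of epithelia and endothelia and are also found on neurons and glia. Many of these proteins bind a copy of themselves on the opposite cell, so the amount of each and of its closest relative is of interest where gene copy number is altered. The genes described here were 8 protein-coding genes of the 43629 in the count table, picked by name. Dscam, Ncam2, Jam2, Cxadr and Igsf5 lie in the segment of mouse chromosome 16 that is duplicated in Dp1Tyb mice, and Dscaml1, Ncam1 and Jam3 are paralogs on chromosome 9 of the first 3 of them.

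RNA was sequenced from the whole hippocampus of 5 Dp1Tyb mice, genotype Dp(16Lipi-Zbtb21)1TybEmcf, and 5 wild-type (WT) littermates. All were males. The labels give the strain of both groups as C57BL/6J.129P2 and the age as 18 weeks; the methods add that the mice were backcrossed to C57BL/6J and give a slightly greater age. The Dp1Tyb strain is a model of Down syndrome and carries 3 copies of every gene from Lipi to Zbtb21, so that each of the 5 duplicated genes is present at 1.5 times its normal dose, together with all the other genes of the segment. Each mouse gave 1 library, and total counts lay between 18227684 and 43692270 per library. All 8 hippocampal markers examined were expressed, and their summed level was 1040 to 1190 counts scaled to library size (CPM) in WT and 1060 to 1160 CPM in Dp1Tyb. Single markers moved in opposite directions within that sum, with log2 fold changes from -0.49 to 0.15, of which 5 were above 0 and 3 below. None of the 8 was called by edgeR, but 3 (37.5%) had an unadjusted p under 0.05 in edgeR, beside 14.4% of all tested genes. Markers of the choroid plexus, the secretory epithelium next to the hippocampus, varied greatly, from 437 to 5560 CPM in WT and from 43.1 to 3930 CPM in Dp1Tyb, with Dp1Tyb replicates 1 and 4 and WT replicate 2 lowest. All 10 choroid plexus markers had log2 fold changes below 0, with a median of -0.975. None was at 0, none was called by edgeR, DESeq2 or limma voom, and none reached an unadjusted p under 0.05 in edgeR. Summed markers of oligodendrocytes were at 2100 to 2860 CPM in WT and 2230 to 3050 CPM in Dp1Tyb, those of thalamus at 85.0 to 94.7 and 85.1 to 90.2 CPM, and those of blood at 43.0 to 93.2 and 33.4 to 67.1 CPM. The 5 blood markers had a median log2 fold change of -0.435, all below 0 and none called by edgeR, DESeq2 or limma voom, with 1 at an unadjusted p under 0.05 in edgeR. In whole tissue, fewer cells of a type and less RNA per cell cannot be told apart.

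Windows of 250 bases before to 50 bases after the transcription start came from RefSeq (GRCm38.p6). The set used here held them for 2 of the 8 genes, Dscam and Ncam2, and both are shown. These 2 genes are duplicated and rose in Dp1Tyb, as did Jam2 and Cxadr, as given below. The Dscam window lies at chr16:97170686-97170985 on the minus strand and the Ncam2 window at chr16:81200447-81200746 on the plus strand. Both are written 5′ to 3′ with each CpG, the dinucleotide at which mammalian DNA is methylated, in capitals.
Dscam: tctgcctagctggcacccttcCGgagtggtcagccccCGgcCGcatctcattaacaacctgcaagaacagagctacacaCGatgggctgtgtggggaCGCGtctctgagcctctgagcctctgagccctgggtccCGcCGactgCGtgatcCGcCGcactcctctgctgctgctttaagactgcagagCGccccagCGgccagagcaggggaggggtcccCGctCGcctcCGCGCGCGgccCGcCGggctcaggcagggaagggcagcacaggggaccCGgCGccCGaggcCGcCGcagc
Ncam2: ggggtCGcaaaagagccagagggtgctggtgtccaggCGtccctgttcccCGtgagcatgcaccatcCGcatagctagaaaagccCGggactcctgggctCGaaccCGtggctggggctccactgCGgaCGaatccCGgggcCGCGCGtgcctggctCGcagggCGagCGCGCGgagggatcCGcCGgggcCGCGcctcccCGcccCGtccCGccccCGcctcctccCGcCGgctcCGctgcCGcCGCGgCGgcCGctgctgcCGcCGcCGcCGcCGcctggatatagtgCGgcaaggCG
Both windows were rich in GC. The Dscam window held 26 CpGs at 70% GC and the Ncam2 window 41 CpGs at 75.7% GC, against a median of 7 CpGs and 52.7% GC over 32851 promoter windows of the same length. A GC content below that of Dscam was found in 90.4% of all windows, and below that of Ncam2 in 96.7%. The letters of the GC box, GGGCGG on either strand, occurred 2 times without overlap in the Ncam2 window and not in the Dscam window, whereas 35.7% of all windows held them. The letters TATAAA, searched on both strands, were in neither window and in 13.6% of all windows.

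The comparison asked whether the duplicated adhesion genes were more highly expressed in Dp1Tyb hippocampus, and whether their 2-copy paralogs changed with them. Of the 5 duplicated genes, 4 rose in Dp1Tyb, namely Dscam, Ncam2, Jam2 and Cxadr, by 1.48- to 1.63-fold. Igsf5 was barely expressed and did not pass the test. Differential expression was called at an adjusted p under 0.05 in edgeR's quasi-likelihood test over all 17237 tested genes, of which 0.87% were called higher in Dp1Tyb. The share among the tested genes of the duplicated segment was 59.6%, or 68 of 114, and 0.718% of the tested genes outside it were called in either direction. All 8 adhesion genes passed the filter on low counts. The median log2 fold change of the 5 duplicated members was 0.626, beside 0.532 for the 114 duplicated genes tested and -0.004 for all tested genes. None of the 3 paralogs was called by edgeR, DESeq2 or limma voom, and none had an unadjusted p under 0.05 in edgeR. All p-values in this comparison set the genotype difference against the spread between mice, and litter was not in the model.

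**Figure D1:**
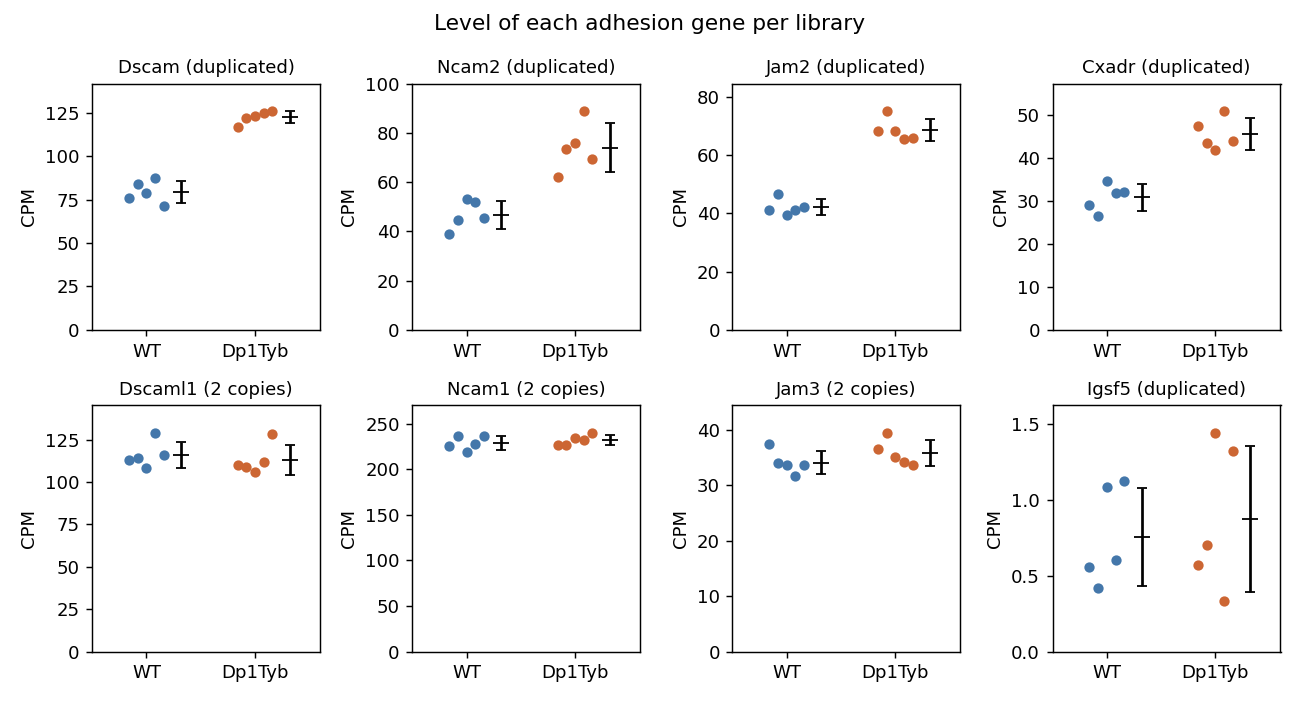
Expression of the 8 adhesion genes in CPM, with 1 point per mouse (WT blue, Dp1Tyb orange, n = 5 each) and the mean with its SD to the right of the points. For Dscam, Ncam2, Jam2 and Cxadr every Dp1Tyb point lies above every WT point, whereas the groups overlap for Dscaml1, Ncam1, Jam3 and Igsf5.

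Dscam encodes the Down syndrome cell adhesion molecule, a large receptor of neurons that binds itself and netrin. The gene (ENSMUSG00000050272) spans 579.9 kb at positions 96590840 to 97170752 of chromosome 16 in GRCm38, minus strand, and was the longest of the 114 tested duplicated genes. Its level was 75.9, 83.7, 78.9, 87.6 and 71.4 CPM in WT replicates 1 to 5. In Dp1Tyb replicates 1 to 5 it was 117, 122, 123, 125 and 126 CPM. The lowest Dp1Tyb library therefore stood well above the highest WT library, and the Dp1Tyb values were close together. The mean was 79.5 ± 6.36 CPM for WT against 123 ± 3.51 CPM for Dp1Tyb (SD, n = 5). The log2 fold change was 0.63 ± 0.051 SE (adjusted p = 1.25e-05 in edgeR), a 1.54-fold difference with a 95% interval of 1.43 to 1.67. Counts of Dscam ranged from 1456 to 5115 per library. Antisense transcripts overlap 174 and 99 bases of its exons, and these were not analysed here.

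Dscaml1, the closest relative of Dscam, encodes a similar self-binding receptor (ENSMUSG00000032087, chromosome 9, positions 45426628 to 45753712). It was measured at 113, 114, 108, 129 and 116 CPM in the WT libraries and at 110, 109, 106, 112 and 128 CPM in the Dp1Tyb libraries. The groups overlapped over most of their range. The log2 fold change was -0.04 ± 0.057 SE (adjusted p = 0.789 in edgeR), and the 95% interval of the fold change, 0.894 to 1.06, left out the 1.5-fold difference of the gene dose.

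Ncam2 encodes neural cell adhesion molecule 2, which is known for its role in olfactory axons and is carried by many other neurons. The gene (ENSMUSG00000022762) spans 426.1 kb at positions 81200697 to 81626828, plus strand, and ranked 3 by length among the 114. It was measured at 39.0, 44.5, 53.0, 52.0 and 45.3 CPM in WT, and at 61.9, 73.6, 75.8, 88.9 and 69.4 CPM in Dp1Tyb. Replicate 4 was the highest and replicate 1 the lowest of the Dp1Tyb libraries, and the groups did not overlap. The mean rose from 46.8 ± 5.77 to 73.9 ± 9.90 CPM (SD, n = 5), so that the mice differed more among themselves than for Dscam. The log2 fold change was 0.66 ± 0.098 SE (adjusted p = 0.00319 in edgeR), or 1.58-fold with a 95% interval of 1.37 to 1.83.

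Ncam1 encodes NCAM, an abundant adhesion molecule of neurons and glia that can be modified with polysialic acid (ENSMUSG00000039542, chromosome 9, positions 49502136 to 49798925). Its WT values were 225, 236, 219, 228 and 236 CPM, and its Dp1Tyb values were 227, 227, 234, 232 and 240 CPM. The libraries of both genotypes were interleaved, with only Dp1Tyb replicate 5 above all of WT. Ncam1 was the most tightly measured of the 8 genes, with a log2 difference of 0.02 ± 0.033 SE (adjusted p = 0.809 in edgeR) and a 95% interval of 0.966 to 1.06 for the fold change. An antisense gene shares 417 bases with its exons but had 99 counts over all libraries.

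Jam2 encodes JAM-B, an adhesion molecule of endothelium and other cells that binds itself and JAM-C, the product of Jam3. The gene (ENSMUSG00000053062) lies at positions 84774123 to 84825928, plus strand. Its level was 41.0, 46.6, 39.3, 41.1 and 42.1 CPM in WT and 68.3, 75.1, 68.3, 65.6 and 65.7 CPM in Dp1Tyb. The gap between the genotypes was wider than the whole range within either of them. Jam2 had the largest change of the 8 genes, with means of 42.0 ± 2.73 and 68.6 ± 3.88 CPM (SD, n = 5) and a log2 difference of 0.71 ± 0.053 SE (adjusted p = 6.1e-06 in edgeR). The fold change was 1.63, and its 95% interval, 1.51 to 1.77, began just above the gene dose. Leaving out single libraries moved the log2 fold change between 0.67 and 0.74, lowest without Dp1Tyb replicate 2 (0.67 ± 0.051 SE). With the choroid plexus level as a covariate it was 0.69 ± 0.058 SE. The gene dose is 0.58 on this scale, and whether the interval stayed above it in those fits is not given here. Of 7 endothelial markers, none of them at 0, none was called by edgeR, DESeq2 or limma voom. In edgeR 3 of these markers (42.9%) had an unadjusted p under 0.05, beside 14.4% of all tested genes. All 7 had log2 fold changes below 0, with a median of -0.115, and their summed level was 224 to 244 CPM in WT and 212 to 223 CPM in Dp1Tyb. Their part in the Jam2 result was not tested.

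Jam3 (ENSMUSG00000031990, chromosome 9, positions 27097384 to 27155421) gave 37.5, 34.0, 33.6, 31.7 and 33.6 CPM in WT. In Dp1Tyb it gave 36.5, 39.5, 35.1, 34.3 and 33.7 CPM. Only Dp1Tyb replicate 2 exceeded all WT libraries. The log2 fold change was 0.07 ± 0.057 SE (adjusted p = 0.59 in edgeR), with a 95% interval of 0.965 to 1.14 for the fold change. An antisense gene that was not analysed here shares 1159 bases with its exons, and the value is uncertain to that extent.

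Cxadr encodes the coxsackievirus and adenovirus receptor, a junctional protein that is highest in the developing brain and is kept in adult neurons and in epithelia. The gene (ENSMUSG00000022865) lies at positions 78301489 to 78359774, plus strand. It was measured at 29.1, 26.5, 34.8, 31.8 and 32.2 CPM in WT and at 47.6, 43.6, 41.9, 51.0 and 43.9 CPM in Dp1Tyb. The genotypes did not overlap, and the libraries at the far ends were WT replicate 2 and Dp1Tyb replicate 4, both poor in choroid plexus RNA. The means were 30.9 ± 3.17 and 45.6 ± 3.67 CPM (SD, n = 5). The log2 fold change was 0.57 ± 0.074 SE (adjusted p = 0.00103 in edgeR), or 1.48-fold with a 95% interval of 1.33 to 1.66. Without the 3 libraries of lowest choroid plexus level it was 0.43 ± 0.063 SE (adjusted p = 0.00596 in edgeR), and with the choroid plexus level as a covariate it was 0.55 ± 0.082 SE (adjusted p = 0.00189 in edgeR). Cxadr shares 695 exonic bases with Btg3 on the opposite strand, and although the library kit keeps strand, the strand setting of the counting was not given, so its value is uncertain to that extent.

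Igsf5 encodes JAM4, a tight-junction protein of kidney and intestine. The gene (ENSMUSG00000000159) lies at positions 96361668 to 96422121, plus strand, and a second gene model with the same symbol shares 788 exonic bases with it. It had between 10 and 36 counts per library. The WT libraries gave 0.560, 0.416, 1.08, 0.605 and 1.12 CPM, and the Dp1Tyb libraries 0.573, 0.700, 1.44, 0.333 and 1.32 CPM. The genotypes overlapped over the whole WT range, and a genotype difference was not detectable at these counts and this spread between mice. The log2 difference was 0.19 ± 0.40 SE (adjusted p = 0.857 in edgeR), and the 95% interval of the fold change, 0.631 to 2.07, contained both 1 and 1.5. The lowest Igsf5 levels were in Dp1Tyb replicate 4 and WT replicate 2, both among the 3 libraries with the lowest choroid plexus markers, and the 4 highest were in libraries where the markers averaged 5.77 to 6.50 on the log2 CPM scale. Other libraries departed from this order, since WT replicate 4 had a marker average of 6.07 with 0.605 CPM of Igsf5, and Dp1Tyb replicate 1, lowest in the markers, had slightly more Igsf5 than WT replicate 1. With that average as a covariate the log2 fold change was 0.73 ± 0.27 SE (edgeR, unadjusted p = 0.0152, adjusted p = 0.284), and without the 3 libraries it was 0.49 ± 0.34 SE (adjusted p = 0.627 in edgeR). Its sign turned without Dp1Tyb replicate 3, at -0.07.

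**Figure D2:**
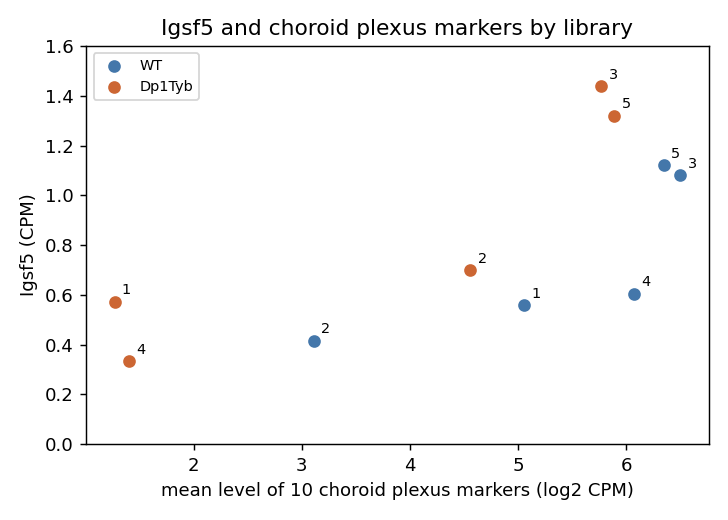
Igsf5 level (CPM, vertical) against the mean log2 CPM of 10 choroid plexus markers (horizontal) in each library, numbered by replicate. Dp1Tyb replicates 1 and 4 and WT replicate 2 stand at the left, at 1.27, 1.40 and 3.11, with Igsf5 between 0.333 and 0.573 CPM; the points share depth and dissection, and no test was made on them.

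Seen together, the 4 duplicated genes with a call had intervals that overlapped each other, and the 3 paralogs lay around 0. In 4 of the 5 duplicated genes all Dp1Tyb libraries lay above all WT libraries. Such separation of the groups was found in 62.3% of the 114 tested duplicated genes and in 3.68% of all tested genes, or 3.29% of those outside the segment. By size of log2 fold change Jam2 stood 19th, Ncam2 26th, Dscam 32nd, Cxadr 47th and Igsf5 96th among the 114 duplicated genes.

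**Figure D3:**
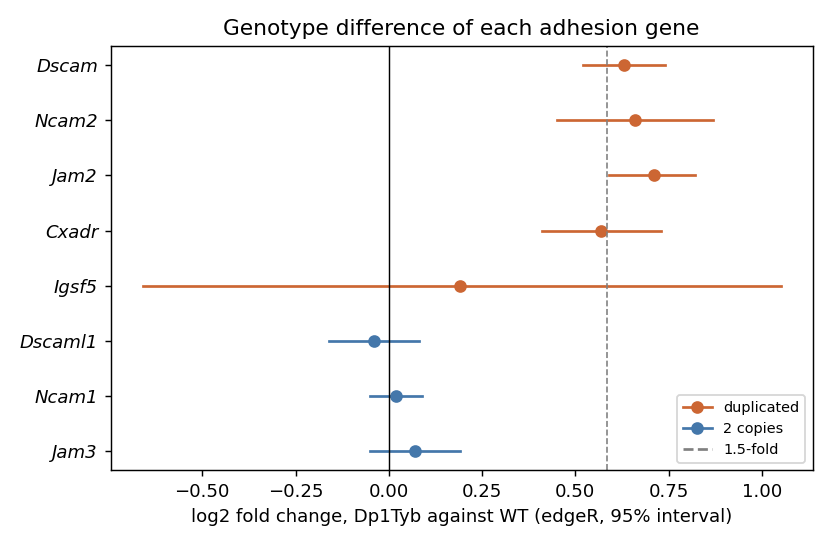
Log2 fold change of Dp1Tyb against WT (horizontal, n = 5 per genotype) for the 8 genes, with the 95% interval from edgeR as a line. Dscam, Ncam2, Jam2 and Cxadr lie between 0.57 and 0.71, near the dashed line at 1.5-fold, the 3 paralogs lie between -0.04 and 0.07, and the interval of Igsf5 runs from -0.66 to 1.05.

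A second question was how the balance between each duplicated gene and its paralog altered. The ratio of counts of 2 genes within a library does not depend on how libraries are scaled against each other, and 3 such ratios were tested. The Dscam to Dscaml1 ratio was 0.670, 0.733, 0.734, 0.679 and 0.618 in the WT libraries and 1.06, 1.12, 1.16, 1.12 and 0.987 in the Dp1Tyb libraries. Dscaml1 thus gave more counts than Dscam in every WT library, and Dscam gave more than Dscaml1 in 4 of the 5 Dp1Tyb libraries. On the log2 scale the ratio rose from -0.55 ± 0.10 to 0.12 ± 0.091 (SD, n = 5), a difference of 0.67 (p = 0.00794 in an exact permutation test, two-sided, which cannot give a smaller p with 5 mice against 5).

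The Ncam2 to Ncam1 ratio was 0.173, 0.189, 0.242, 0.228 and 0.192 in WT. It was 0.272, 0.324, 0.324, 0.383 and 0.289 in Dp1Tyb, so that Ncam1 remained the more abundant in all 10 libraries. The difference in log2 ratio was 0.64 (p = 0.00794 in the same exact permutation test). The Jam2 to Jam3 ratio was 1.09, 1.37, 1.17, 1.30 and 1.25 in WT and 1.87, 1.90, 1.95, 1.91 and 1.95 in Dp1Tyb. The Dp1Tyb values were nearly alike, and the difference in log2 ratio was also 0.64 (p = 0.00794 in the same exact permutation test). Adjusted over the 3 ratios each p was 0.00794, and each ratio was higher in all 5 Dp1Tyb libraries than in any WT library. The ratios use the same counts as the calls given above and are not separate evidence for them.

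**Figure D4:**
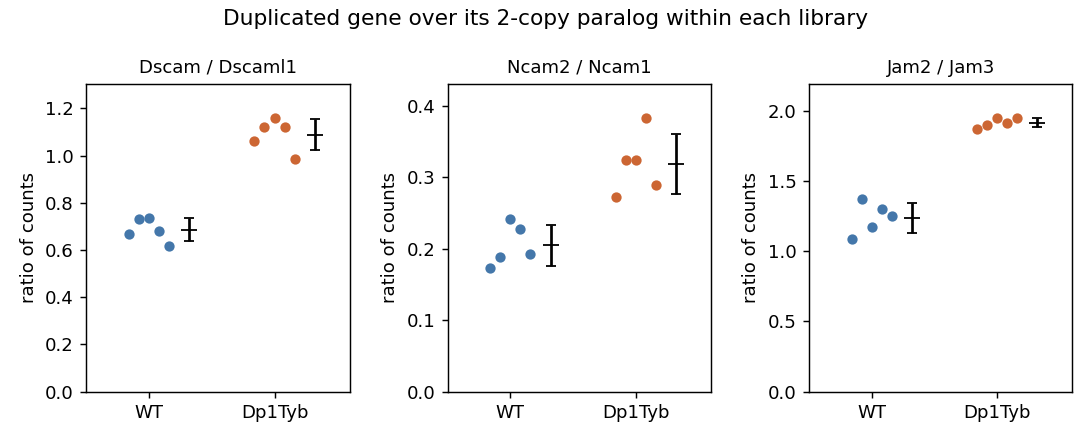
Ratio of counts of the duplicated gene to its 2-copy paralog in each library (vertical, no unit), with the mean and SD beside the points (n = 5 per genotype). The mean moves from 0.687 to 1.09 for Dscam over Dscaml1, from 0.205 to 0.319 for Ncam2 over Ncam1 and from 1.24 to 1.92 for Jam2 over Jam3.

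To compare levels between genes, CPM was divided by the length of the annotated exons (RPKM). In WT hippocampus Ncam1 was the highest of the 8 at 26.4 ± 0.836 RPKM (SD, n = 5), followed by Dscaml1 at 13.0 ± 0.885 RPKM and Jam3 at 10.7 ± 0.657 RPKM. Dscam, at 9.04 ± 0.723 RPKM, overlapped with Jam3. Jam2 stood at 6.95 ± 0.452 RPKM, and below it Cxadr at 4.17 ± 0.429 RPKM and Ncam2 at 4.13 ± 0.509 RPKM overlapped. All the 2-copy paralogs thus had higher mean levels than the duplicated genes in WT, while Igsf5 was at 0.300 ± 0.128 RPKM.

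In Dp1Tyb the order changed in the middle. Ncam1 remained highest at 26.8 ± 0.605 RPKM, but Dscam at 14.0 ± 0.399 RPKM, Dscaml1 at 12.7 ± 0.966 RPKM and Jam2 at 11.4 ± 0.643 RPKM each overlapped with the next in order, which for Jam2 was Jam3 at 11.2 ± 0.725 RPKM. Jam3 did not overlap with Ncam2 below it. Ncam2 and Cxadr again overlapped, at 6.52 ± 0.874 and 6.16 ± 0.497 RPKM. Per exon length, the ratio of Dscam to Dscaml1 was 0.695 ± 0.0489 in WT and 1.10 ± 0.0682 in Dp1Tyb, and that of Jam2 to Jam3 was 0.654 ± 0.0572 and 1.01 ± 0.018 (SD, n = 5). For Ncam2 to Ncam1 it was 0.157 ± 0.022 and 0.244 ± 0.0326. Exon lengths are those of all annotated transcripts together, so a level per length shifts where a tissue uses a short transcript.

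The 5 duplicated genes are spread along the segment, which extends from position 75540514 to 97962622. By its lower coordinate, Cxadr lies 2.76 Mb from its proximal end, Ncam2 5.66 Mb, Jam2 9.23 Mb, Igsf5 20.82 Mb and Dscam 21.05 Mb. Ncam2 was isolated, with the nearest tested genes on either side 2624.0 and 1201.6 kb away. On the proximal side D16Ertd472e had a log2 difference of 0.76 ± 0.11 SE (adjusted p = 0.00326 in edgeR), and on the distal side Gm21833 was at -0.08 ± 0.13 SE (adjusted p = 0.80 in edgeR). Jam2 lies between genes of mitochondrial proteins that both rose, Mrpl39 of the mitochondrial ribosome (0.60 ± 0.067 SE, adjusted p in edgeR = 0.000223) and Atp5j of the ATP synthase, 1.9 kb away (0.50 ± 0.074 SE, adjusted p in edgeR = 0.00329).

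Around Cxadr, Gm37694 had a log2 difference of 0.63 ± 0.15 SE (adjusted p = 0.0671 in edgeR), and the overlapping Btg3, an antiproliferative factor, 0.34 ± 0.12 SE (adjusted p = 0.234 in edgeR). Dscam is flanked by Pcp4, a calmodulin-binding protein gene 65.0 kb away, at 0.43 ± 0.21 SE (adjusted p = 0.365 in edgeR), and by Bace2, a protease gene 186.0 kb away, at 1.04 ± 0.32 SE (adjusted p = 0.167 in edgeR). Neither neighbour of Dscam passed the test. Igsf5 lies 0.2 kb from Itgb2l, which was lower still, at 0.339 and 0.294 CPM in WT and Dp1Tyb, with a log2 difference of -0.24 ± 0.50 SE (adjusted p = 0.857 in edgeR). On its other side the glycosyltransferase gene B3galt5 rose by 0.45 ± 0.049 SE (adjusted p = 0.000177 in edgeR). Of the 10 neighbours, all in the duplicated segment, 4 were called, all higher in Dp1Tyb, beside 59.6% of the 114 tested genes of the segment.

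**Figure D5:**
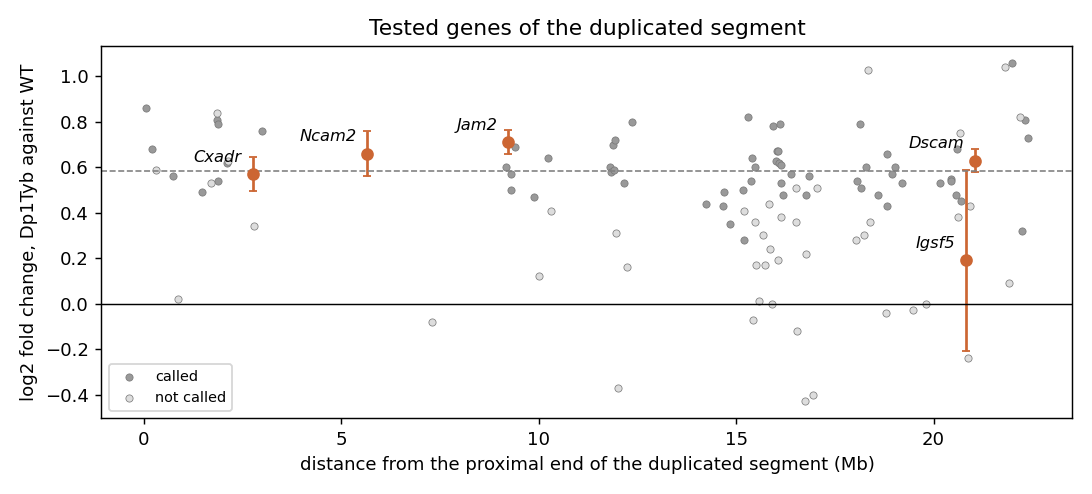
Log2 fold change of Dp1Tyb against WT (vertical) of the 114 tested genes of the duplicated segment, by the distance of their lower coordinate from its proximal end in Mb (horizontal); dark grey points are called, light grey points are not, and the 5 adhesion genes are orange with their SE. Dscam, Ncam2, Jam2 and Cxadr lie near the dashed 1.5-fold line, whereas Igsf5, at 20.82 Mb, lies at 0.19 with a wide error.

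Genes whose products share ligands, partners or domains with these proteins were examined as lists. Of 72 listed genes, 67 were tested and 2 were called, App and Eva1c, both in the duplicated segment and higher in Dp1Tyb. The share called over all tested genes, in either direction, was 1.11%. Among the 63 tested list genes outside the segment edgeR and limma voom called 0, DESeq2 called 1, and 15 (23.8%) had an unadjusted p under 0.05, as did 2391 of the 17123 tested genes outside the segment (14%). The median log2 fold change of the 63 genes was 0.036.

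Among 6 other duplicated genes of the cell surface, 4 were tested. App, the amyloid precursor, which also acts in adhesion, rose from a mean of 1600 ± 52.7 to 2570 ± 36.1 CPM (SD, n = 5; log2 fold change 0.69 ± 0.042 SE, adjusted p in edgeR = 7.47e-07). Eva1c, a receptor for the guidance cue Slit, rose from 1.52 ± 0.315 to 2.67 ± 0.389 CPM (0.82 ± 0.16 SE, adjusted p in edgeR = 0.0252), but leaving out a single library ended the call for 6 of the 10 libraries. Those were WT replicates 1, 2, 4 and 5 and Dp1Tyb replicates 2 and 3, with adjusted p-values in edgeR of 0.0672, 0.0693, 0.0727, 0.061, 0.0725 and 0.0728. The log2 fold change stayed between 0.74 and 0.82 in those 6 fits. The claudins Cldn8 and Cldn17, which form tight-junction strands, were too low to be tested. Cldn8, named after its values were seen, had 5, 0, 3, 3 and 3 counts in WT and 9, 17, 11, 10 and 5 in Dp1Tyb.

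In the JAM and CAR family outside the segment 5 of 7 genes were tested and none was called by edgeR. Vsig2 came closest, with means of 11.3 ± 0.652 CPM (WT) and 13.9 ± 1.10 CPM (Dp1Tyb; SD, n = 5; log2 fold change 0.30 ± 0.073 SE, adjusted p in edgeR = 0.0735), and was called in DESeq2 (adjusted p = 0.0179). Igsf11, the most abundant per length, was at -0.04 ± 0.064 SE on the log2 scale (adjusted p = 0.782 in edgeR).

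The contactin and L1 family holds axonal adhesion receptors that, like Ncam1, carry immunoglobulin and fibronectin domains. All 12 genes were tested and none was called by edgeR, with a median log2 fold change of 0.056. In edgeR 4 (33.3%) had an unadjusted p under 0.05, beside 14% of the tested genes outside the segment. Positive values were found in 10 of the 12, and in 8292 of the 17123 tested genes outside the segment. The log2 fold changes of the 12 ran from -0.26 to 0.27, with 2 below 0. The most abundant, Cntn1 and Nrcam, were at 0.06 ± 0.044 SE and 0.05 ± 0.053 SE (adjusted p = 0.536 and 0.695 in edgeR). Chl1 had the lowest p, at 0.16 ± 0.059 SE (adjusted p = 0.246 in edgeR). Of 9 tested genes for netrins and their receptors, which share ligands with Dscam, none was called by edgeR and 1 (11.1%) had an unadjusted p under 0.05. This was Unc5c, at 0.19 ± 0.084 SE (adjusted p = 0.318 in edgeR). Unc5a was at -0.15 ± 0.084 SE and Neo1 at -0.01 ± 0.041 SE (adjusted p = 0.454 and 0.955 in edgeR).

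Partners of NCAM and the enzymes that add polysialic acid were not called in edgeR in any of 9 cases. An unadjusted p under 0.05 was found for 4 (44.4%), beside 14% of the tested genes outside the segment. Log2 fold changes in this list ran from -0.21 to 0.13, with 6 above 0 and 3 below. Fyn, a kinase downstream of NCAM, was at 0.10 ± 0.030 SE (adjusted p = 0.157 in edgeR), the prion protein gene Prnp at 0.10 ± 0.043 SE and the growth-cone gene Gap43 at 0.11 ± 0.057 SE (adjusted p = 0.297 and 0.385 in edgeR). Of 14 junction scaffolds none was called by edgeR and 2 (14.3%) had an unadjusted p under 0.05. Their log2 fold changes ran from -0.33 to 0.13, with 7 above 0 and 7 below. Tjp1, which encodes ZO-1, was at 0.06 ± 0.038 SE (adjusted p = 0.489 in edgeR), Magi3 at 0.13 ± 0.053 SE (adjusted p = 0.293 in edgeR) and Afdn had adjusted p = 0.986 in edgeR.

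Kinases and adaptors linked to DSCAM signalling gave 0 calls among 7 genes in edgeR, with 2 (28.6%) at an unadjusted p under 0.05. Pak1 was at 0.11 ± 0.052 SE, Pak3 at 0.18 ± 0.057 SE and Src at -0.08 ± 0.043 SE (adjusted p = 0.369, 0.167 and 0.427 in edgeR). Integrins that bind JAM proteins gave 0 calls among 7 in edgeR, with 1 (14.3%) at an unadjusted p under 0.05. This was Itgb3, at 0.53 ± 0.24 SE (adjusted p = 0.34 in edgeR). Dp1Tyb replicate 5 alone had 7.98 CPM of Itgb3, and without it the value was 0.21 (adjusted p = 0.422 in edgeR). The abundant Itgb1 and Itgav were at 0.02 ± 0.067 SE and -0.02 ± 0.051 SE (adjusted p = 0.927 and 0.914 in edgeR).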

How the data were processed

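Adapters were trimmed by the authors with Trim Galore, reads were mapped to GRCm38 with TopHat2 2.0.12 and reads with several alignments were discarded. Reads per Ensembl gene were then counted with htseq-count, and the deposited counts are raw whole numbers, 1 column per mouse. Libraries came from a stranded mRNA kit, but how htseq-count treated strand, and which annotation release it read, are not given in the sources used here. The deposited normalised values, and a deposited table of the authors' own DESeq2 1.6.3 comparison (means, fold changes and p-values), were not used.

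Counts were tested with edgeR 4.0.16 (quasi-likelihood F-test, CPM scaled by TMM library sizes, filterByExpr, all 10 libraries, no covariates, Benjamini-Hochberg) in R 4.3.3. DESeq2 1.42.0, limma voom 3.58.1, other scalings and filters, a replicate block, a choroid plexus covariate and the removal of each library were alternatives. The fits were tested on simulated data drawn from the real genes' means. SEs were derived from the F statistic (log2 fold change over its square root), and 95% intervals from its degrees of freedom. RPKM is CPM per kb of merged annotated exons. Gene models came from GENCODE M21 (GRCm38), which matched 42548 of 43629 IDs. Totals ranged from 18227684 to 43692270 counts. No 2 libraries agreed within sampling noise (smallest chi-square per degree of freedom 4.964 in 45 pairs). No batch is given in the labels.

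The members and lists were chosen with earlier results of these data known. Genes named were the 8 members, all called genes of the partner lists, the 2 most abundant genes and the gene of lowest p in each list, the tested genes next to each duplicated member and the 3 genes most alike to each member. The untested Cldn8 and Cldn17 fall outside this rule and were named after their values were seen.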

Additional observations from a re-analysis of the deposited data

Results flagged for a closer look

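In 22 groups of 5 values (the log2 CPM of the 8 genes and the 3 log2 ratios in each genotype), the gap between the highest or lowest value and its neighbour was set against the spread from lowest to highest (Dixon's test at 95%). In 1 group the gap passed the critical value, and chance alone gives about 1.1 (1 in 20). Dscaml1 in Dp1Tyb replicate 5 was at 7.01 log2 CPM, against 6.74 to 6.81 in the other Dp1Tyb libraries, a gap of 0.735 of the range.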

How the results depend on the processing

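The 4 called duplicated members and the 0 called paralogs stood at 4 and 0 in all 19 alternatives, and the number of duplicated genes called lay between 62 and 76. Of 151 alternative log2 fold changes of the 8 genes, 149 kept their direction and side of the threshold. The exceptions were uncalled values near 0: Dscaml1 was 0.0035 without WT replicate 4 (range -0.09 to 0.0035 over the libraries left out), and Igsf5 was -0.07 without Dp1Tyb replicate 3 (range -0.07 to 0.41). Igsf5 could not be tested at a minimum of 1 CPM. The number of called partner genes ranged from 1 to 2 when single libraries were left out, and was 1 without the 3 libraries of lowest choroid plexus level, an alternative added after seeing the data, since Eva1c was then not called (adjusted p = 0.064 in edgeR). Leaving out single libraries gave log2 fold changes of 0.59 to 0.66 for Dscam, 0.58 to 0.72 for Ncam2, 0.67 to 0.74 for Jam2 and 0.51 to 0.61 for Cxadr.

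Same-numbered WT and Dp1Tyb libraries did not deviate together throughout (correlations 0.277, -0.000386, 0.259, -0.0597 and 0.343), with 3 of the 5 above 0.1 and WT libraries 1 and 5 closest to their own number, so the numbers were not taken as pairs. With the replicate block edgeR called 315 genes against 191. Paired by replicate number, the log2 ratios of Dscam, Ncam2 and Jam2 to their paralogs again differed by 0.67, 0.64 and 0.64, with p = 0.0625 in an exact sign-flip test, the smallest that 5 pairs allow. Across all genes DESeq2 called 507 and the choroid plexus covariate left 140. Without single libraries the count lay between 105 and 218, lowest without WT replicate 4 and without Dp1Tyb replicate 2, and it was 108 without the 3 libraries of lowest choroid plexus level. Igsf5 had the fewest counts of the 8 genes, 10 to 36 per library.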

Other observations

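For each of the 8 genes, the 3 genes were sought whose log2 CPM followed it most closely over the 10 libraries once each genotype's mean was taken away. This is a description over 10 libraries that share depth and dissection, and the best of 15099 genes is always high by choice. Dscam was followed most closely by Cntnap1 (Pearson's r = 0.96), Pcnx2 (0.94) and Gpr158 (0.92), and Ncam2 by Sec63 (0.98), Erbb4 (0.97) and Rev3l (0.97). For Jam2 these were Gpr37l1 (0.97), Gabbr1 (0.92) and Utp14b (0.91), and for Cxadr Gm28578 (0.97), Parp14 (0.94) and Clec1a (0.92). Igsf5 was followed by Rrp7a (0.97), Etfb (0.97) and Vamp8 (0.96). Of the paralogs, Dscaml1 was followed by Flii (0.94), Traf3 (0.94) and Gdap1l1 (0.92), Ncam1 by BC048403 (0.94), Mink1 (0.91) and Prx (0.91), and Jam3 by Sept8 (0.97), Suds3 (0.93) and Acy1 (0.93). No duplicated member was among the 3 genes closest to another member. Only genes with a mean of at least 1 CPM were compared, so Igsf5 could not have been among them.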
